A study of Mus musculus with 135 samples.

Results

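Transcripts of 10 genes that mark the mural cells of the brain vasculature were followed in the cortex and hippocampus of male sickle and control mice: Pdgfrb, Rgs5, Kcnj8, Abcc9, Acta2, Myh11, Tagln, Vtn, Notch3 and Anpep. The 10 were chosen by name as known markers of pericytes and vascular smooth muscle cells, out of 55416 genes counted in each tissue. Earlier results of these data were known when they were chosen. Mural cells wrap the endothelial tube. Smooth muscle cells ring arteries and arterioles and set their calibre through an actin and myosin apparatus, while pericytes lie along capillaries, need PDGF signalling from endothelium for their recruitment, and help to maintain the blood-brain barrier. Both kinds of cell respond to signals that alter local blood flow, and sickle cell disease is a disorder in which vessels of the brain are injured.

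RNA was sequenced from Townes humanized mice, in which mouse globin genes are replaced with human ones. AA mice carry normal human beta-globin and SS mice carry sickle beta-globin, so the human globin replacement was shared by every group. All were males of 6 months. Repeated social defeat (RSD) consisted of placing an aggressor male with 3 cage mates for 2 hours on each of 6 days, and minocycline, a tetracycline antibiotic given in drinking water at 90 mg per kg, began the day before RSD. Tissue was taken after behavioural tests, so the libraries describe the days after RSD rather than the sessions themselves. The libraries used were, for cortex and hippocampus respectively, 12 and 11 of untreated AA mice, 8 and 7 of untreated SS mice, 2 and 2 of AA + RSD mice, 6 and 6 of SS + RSD mice, 18 and 18 of AA + RSD + minocycline mice, 14 and 14 of SS + RSD + minocycline mice, 4 and 4 of SS + minocycline mice, and 1 and 1 of an AA + minocycline mouse. The AA + minocycline mouse entered the fits as a group of its own and no comparison.

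Of 134 libraries mapped to a group, 128 were used. In each tissue 1 library labelled SS + minocycline and 1 labelled AA + RSD + minocycline held identical counts, and both were left out. Both libraries of mouse 9674 (AA + RSD) were left out too, because its cortex library had a hippocampus-over-cortex marker score of 0.501 against -4.88 to -2.74 in the cortex libraries used, and its hippocampus library scored -4.44 against -1.4 to 1.76. In the other libraries these markers matched the labelled tissue. Alas2, a gene of immature red blood cells, was at 54 CPM or more in SS cortex and at 20.6 CPM or less in AA cortex, apart from 3 mice: the cortex library labelled 5844 (AA) had 95.9 CPM, that labelled 5853 (AA + RSD + minocycline) 51.9 CPM and that labelled 7078 (SS + RSD + minocycline) 6.47 CPM. The library labelled 9631 (AA) held the mouse beta-globin Hbb-bs at 37 CPM in cortex, where no other library passed 0.224 CPM. Libraries of these 4 mice were kept, and every call was also made without them. CPM here is the count of a gene scaled to the depth of its library by its reads on genes and TMM factors. Reads on genes numbered 16295042 to 107713193 per cortex library (median 33447552) and 12869149 to 68731008 per hippocampus library (median 34199033).

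The libraries also differed in the share of all their reads that mapped once but fell on no gene. This share was 3.68% to 6.09% in 27 cortex libraries and 7.34% to 13.9% in the other 38, with the hippocampus parting likewise into 26 libraries at 3.98% to 5.77% and 37 at 6.49% to 24%. Of 63 mice with both tissues, 59 had the same class in both. Mouse numbers in the labels fell into 3 ranges, called A (53xx to 5400 and 96xx), B (56xx to 59xx and 98xx to 99xx) and C (70xx to 71xx and 106xx) here. Every mouse with RSD and no minocycline was of range A, and every mouse with RSD and minocycline was of range B or C, so RSD without minocycline and number range cannot be told apart outside the untreated groups. The class was mixed within most groups, but all AA + RSD libraries and 11 of the 12 SS + RSD libraries were low.

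Per kilobase of annotated exon, the scale on which genes can be compared, mean levels in cortex ran from 20.3 CPM per kb for Vtn, an extracellular matrix glycoprotein made by brain pericytes, and 15.4 for Rgs5, a regulator of G-protein signalling, down to 0.852 for Anpep, the membrane aminopeptidase CD13. Between these lay Pdgfrb, the PDGF receptor, at 3.55, then the contractile genes Acta2 (smooth muscle actin) at 3.09 and Tagln (transgelin, an actin-binding protein) at 2.39, the receptor Notch3 at 1.66 and Myh11 (smooth muscle myosin heavy chain) at 1.32. The ATP-sensitive potassium channel of mural cells is built from the pore subunit Kcnj8 (Kir6.1) and the regulatory subunit Abcc9 (SUR2), which lay close together at 1.24 and 1.27 CPM per kb. In hippocampus the ends of the order were the same genes, with Vtn at 23.4, Rgs5 at 16.3 and Anpep at 0.792 CPM per kb, while Acta2 at 5.14 stood above Pdgfrb at 3.64. All 10 genes passed the filter on low counts in every comparison.

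By position in GRCm39 with GENCODE annotation, Kcnj8 (ENSMUSG00000030247.10, chromosome 6, 142510563 to 142517830) and Abcc9 (ENSMUSG00000030249.16, chromosome 6, 142533588 to 142648571) are neighbours on the minus strand, 15.8 kb apart. Vtn (ENSMUSG00000017344.5) lies on chromosome 11 at 78388717 to 78393156, and Acta2 (ENSMUSG00000035783.10) on chromosome 19 at 34217737 to 34232990. Some exons are shared with genes on the other strand, and the strand setting of the counting is not given in the sources used here. The overlap covers 66.7% of the exonic bases of Tagln (Pcsk7 on the other strand), 9.33% of Acta2 (Stambpl1) and 8.92% of Notch3 (Gm17276), and at most 1.36% of the other members. Tagln is therefore the least certain of the 10 values, and the part of opposite-strand reads in it was not tested. Within groups the Pearson correlation of Tagln with Pcsk7 was -0.74 over 64 cortex and -0.60 over 62 hippocampus libraries.

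Both proximal promoters are shown because the results below turn on Kcnj8 and on the contractile genes. Smooth muscle genes are known targets of serum response factor, which binds the CArG box. The 250 bases before the RefSeq start are from GRCm38.p6, both on the minus strand and printed 5′ to 3′, for Acta2 chr19:34255374-34255623 and for Kcnj8 chr6:142571615-142571864. Capitals mark a loose CArG form: CC, then 6 letters of which at most 1 is G or C, then GG.
Acta2: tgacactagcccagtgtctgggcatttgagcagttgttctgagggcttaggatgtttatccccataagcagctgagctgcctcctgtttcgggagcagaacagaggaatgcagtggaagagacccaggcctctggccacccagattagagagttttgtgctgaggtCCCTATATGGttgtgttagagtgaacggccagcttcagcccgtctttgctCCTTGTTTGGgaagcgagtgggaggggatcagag
Kcnj8: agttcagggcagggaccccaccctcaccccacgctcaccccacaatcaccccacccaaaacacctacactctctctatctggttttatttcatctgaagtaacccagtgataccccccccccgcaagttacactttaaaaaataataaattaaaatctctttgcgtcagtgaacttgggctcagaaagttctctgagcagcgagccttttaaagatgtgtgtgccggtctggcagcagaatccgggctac

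The Acta2 stretch held 2 loose forms, CCCTATATGG from 84 to 75 bases before the start and CCTTGTTTGG from 34 to 25 bases before it, and Kcnj8 held none. The strict box, with 6 letters all A or T, was in none of the 7 members whose promoter was found, compared with 1.47% of 32851 mouse promoters. The loose form, adopted after the strict search, was present at least once in 8.59% and at least 2 times in 0.67% of those promoters. Both searches read both strands. A match is a match of letters only. Promoters of Pdgfrb, Myh11 and Tagln were not used here.

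The first comparison asked how SS differed from AA without RSD or minocycline. In hippocampus, Kcnj8 and Vtn rose in SS. Kcnj8 was between 1.62 and 4.12 CPM in AA (n = 11, median 3.12) and between 4.59 and 6.62 CPM in SS (n = 7, median 5.72). All 7 SS libraries were above all 11 AA libraries. The log2 fold change was 0.82 ± 0.13 (SE), with an adjusted p of 0.00021 in edgeR. Vtn was between 53.5 and 73.8 CPM in AA (median 62.1) and between 63 and 147.5 CPM in SS (median 100.6), and 5 of 7 SS libraries exceeded every AA library. Its log2 fold change was 0.65 ± 0.13 (adjusted p = 0.0055). These were 2 of 10 members called, against 0.158% of 23372 genes tested.

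In cortex only Kcnj8 of the 10 passed the test in the same contrast, where 0.206% of 22870 genes were called. Kcnj8 was between 2.73 and 5.25 CPM in AA (n = 12, median 3.46) and between 4.12 and 7.85 CPM in SS (n = 8, median 5.93). Of the SS libraries, 6 of 8 were above every AA library. The log2 fold change was 0.66 ± 0.16 (adjusted p = 0.043). Vtn was between 44.2 and 74.9 CPM in AA (median 50.05) and between 62.9 and 80.8 CPM in SS (median 75.3), with 4 of 8 SS libraries above every AA library. It did not pass the test at a log2 fold change of 0.43 ± 0.12 (adjusted p = 0.24).

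**Figure D1:**
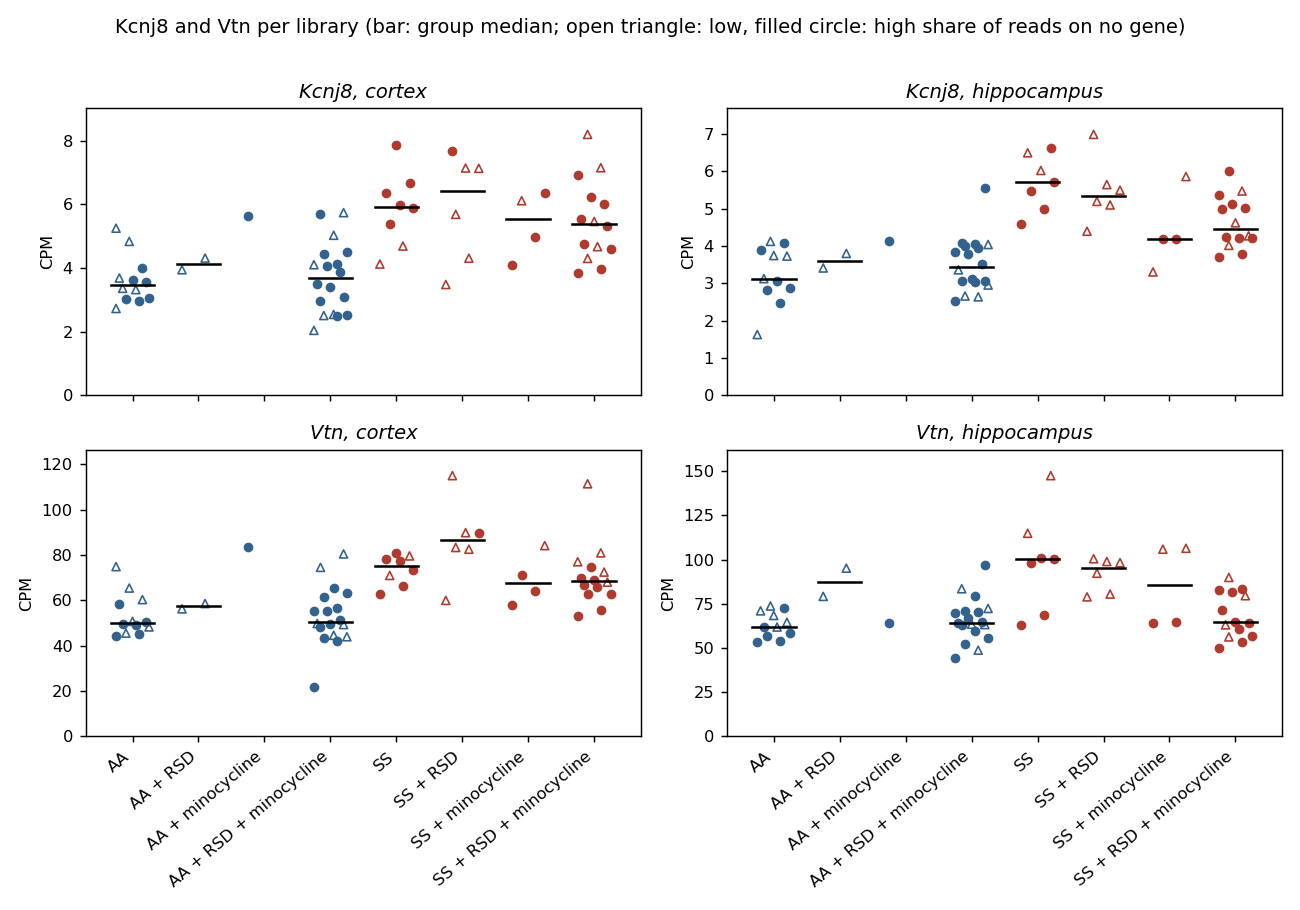
Kcnj8 and Vtn in CPM (vertical axis) in each library, by group along the horizontal axis, in cortex and hippocampus. Bars are group medians, open triangles are libraries with a low share of reads on no gene and filled circles those with a high share; in hippocampus every untreated SS library lies above every untreated AA library for Kcnj8 (medians 5.72 and 3.12 CPM).

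The other 8 members did not pass the test in either tissue, but every one of the 10 estimates was positive in both. The median log2 fold change over the 10 was 0.41 in cortex and 0.56 in hippocampus, beside medians of -0.05 and 0.01 over all genes tested. Abcc9, the channel partner of Kcnj8, had estimates of 0.52 ± 0.21 in cortex and 0.57 ± 0.19 in hippocampus (adjusted p = 0.68 and 0.57). Abcc9 in cortex ranged from 7.76 to 18.4 CPM in AA (median 13.5) and from 10.7 to 26.5 CPM in SS (median 21.4). Pdgfrb had estimates of 0.35 ± 0.12 and 0.37 ± 0.14, and 6 of 8 SS cortex libraries exceeded every AA library (24.7 to 39.4 CPM against 18.7 to 33.9 CPM). Rgs5 gave 0.23 ± 0.11 and 0.28 ± 0.08, Notch3 0.49 ± 0.20 and 0.41 ± 0.22, and Anpep 0.39 ± 0.17 and 0.56 ± 0.22. The contractile genes had the widest errors, with Acta2 at 0.22 ± 0.31 and 0.57 ± 0.32, Myh11 at 0.26 ± 0.25 and 0.41 ± 0.23, and Tagln at 0.50 ± 0.32 and 0.70 ± 0.32. Because this was bulk tissue, fewer or more cells of a type and less or more RNA per cell cannot be told apart.

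The Kcnj8 difference was not of one size in all libraries. In cortex the high class alone gave a log2 fold change of 0.92 (adjusted p = 0.0033), with 5.39 to 7.85 CPM in 6 SS against 2.97 to 3.99 CPM in 6 AA libraries. The low class, with 2 SS libraries at 4.12 and 4.69 CPM inside the AA range of 2.73 to 5.25 CPM, gave 0.18 (adjusted p = 1). Number range A alone also gave 0.18, but its SS libraries were the same 2. Among untreated SS cortex libraries, class and range therefore cannot be told apart. Over all alternatives the adjusted p of Kcnj8 ranged from 0.0033 to 1 in cortex and from 6.7e-07 to 0.67 in hippocampus, where the estimate stayed between 0.77 and 0.92. Vtn in cortex passed the test with the class as a term (0.49, adjusted p = 0.034) and when only the groups compared were fitted (0.46, adjusted p = 0.019), while its hippocampus adjusted p ranged from 0.00045 to 0.35. Without the 4 doubted mice Kcnj8 gave 0.74 (adjusted p = 0.024) in cortex and 0.85 (adjusted p = 8.8e-05) in hippocampus.

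The summed level of 8 endothelial markers, each detected, was 266.9 to 434.9 CPM in AA cortex (median 310.9) and 358.6 to 425.4 CPM in SS cortex (median 395.9), and in hippocampus 245 to 356 CPM in AA (median 281.4) and 330.9 to 452.7 CPM in SS (median 362.3). None of the 8 passed the test in edgeR in either tissue. Their median log2 fold changes were 0.22 and 0.31, and 2 and 5 had an unadjusted p under 0.05. The summed level of 9 fibroblast markers had medians of 33.9 and 46.2 CPM in AA and SS cortex, and of 84.8 and 111.7 CPM in hippocampus. The part of these cells in the differences of the mural genes was not tested.

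Genes that recruit or signal to mural cells were taken from a list of 23. In cortex 1 of 23 rose in SS: Eng (endoglin, a TGF-beta co-receptor of endothelium) at 0.67 ± 0.12 (adjusted p = 0.00073). In hippocampus Eng at 0.61 ± 0.12 (adjusted p = 0.0029) and Dll4, an endothelial Notch ligand, at 0.62 ± 0.15 (adjusted p = 0.044) rose, and 21 did not pass the test. In both tissues 17 of 23 estimates were positive, with medians of 0.10 and 0.13. Of 20 further pericyte markers none passed the test in edgeR. In cortex 7 and in hippocampus 11 had an unadjusted p under 0.05, a level reached by 1643 of 22870 and 896 of 23372 genes tested. Their medians were 0.28 and 0.39, beside -0.05 and 0.01 over all genes. Of 20 genes of the contractile apparatus and its regulators none passed, with 1 and 2 at an unadjusted p under 0.05 and medians of 0.04 and 0.12.

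Among mice given RSD and minocycline, SS again had more Kcnj8 than AA in both tissues. In cortex Kcnj8 was between 2.04 and 5.74 CPM in AA + RSD + minocycline (n = 18, median 3.68) and between 3.84 and 8.20 CPM in SS + RSD + minocycline (n = 14, median 5.39). In hippocampus the ranges were 2.53 to 5.54 CPM (median 3.43) and 3.71 to 5.99 CPM (median 4.44). In both tissues the groups overlapped, and all 14 SS + RSD + minocycline libraries were above the AA + RSD + minocycline median. The log2 fold change was 0.55 ± 0.12 (adjusted p = 0.011) in cortex and 0.41 ± 0.10 (adjusted p = 0.013) in hippocampus.

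The second member called in this contrast differed by tissue. In cortex it was Vtn, at 21.7 to 80.5 CPM in AA + RSD + minocycline (median 50.6) and 53.2 to 111.4 CPM in SS + RSD + minocycline (median 68.4), with a log2 fold change of 0.40 ± 0.10 (adjusted p = 0.029). In hippocampus it was Abcc9, at 4.03 to 18.2 CPM (median 11.7) and 8.82 to 21.6 CPM (median 16), with 0.56 ± 0.14 (adjusted p = 0.015). Vtn in hippocampus gave 0.05 ± 0.10 and Abcc9 in cortex 0.40 ± 0.16 (adjusted p = 0.98 and 0.38), and the difference between tissues was not tested. The 2 members called stood beside 0.599% of genes called in cortex and 2.73% in hippocampus. In cortex all 10 estimates were positive and in hippocampus 6 of 10.

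These calls were sensitive to which libraries entered. With number range B alone, Kcnj8 gave 0.47 in cortex and 0.37 in hippocampus (adjusted p = 0.093 and 0.17), and no member was called in either tissue. Without the cortex libraries of mice 7076 (SS + RSD + minocycline, Vtn 111.4 CPM) and 9851 (AA + RSD + minocycline, Vtn 21.7 CPM), Vtn gave 0.30 (adjusted p = 0.051) and Kcnj8 0.48 (adjusted p = 0.04). Over all alternatives the adjusted p ranged from 0.0021 to 0.20 for Kcnj8 and from 0.007 to 0.23 for Vtn in cortex, and from 0.0037 to 1 for Kcnj8 and from 0.004 to 1 for Abcc9 in hippocampus. Of the list of 23 recruitment genes, Edn1 (endothelin, a vasoconstrictor peptide) rose by 0.62 ± 0.15 and 0.50 ± 0.14 in cortex and hippocampus (adjusted p = 0.02 and 0.027), and Eng by 0.41 ± 0.09 and 0.39 ± 0.09 (adjusted p = 0.012 and 0.0058). Of the 8 endothelial markers none passed in cortex and 2 rose in hippocampus (Abcb1a and Flt1).

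**Figure D2:**
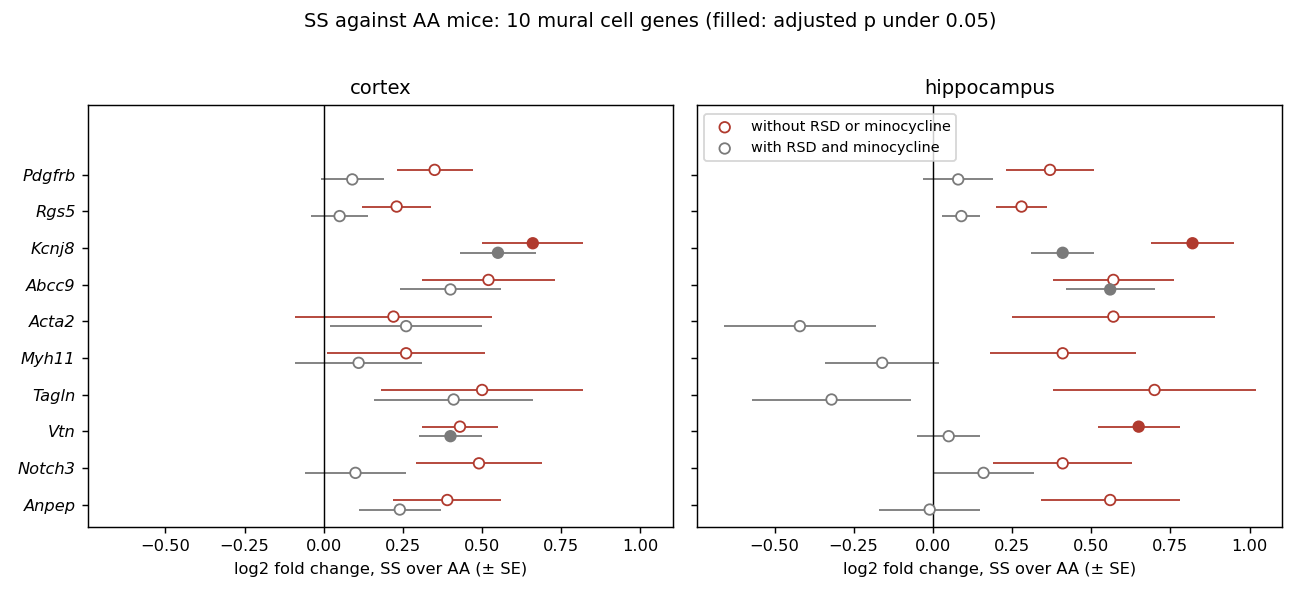
Log2 fold change of SS over AA for the 10 genes (horizontal axis, log2 scale; bars are 1 SE), in cortex and hippocampus, for mice without RSD or minocycline (red) and for mice with RSD and minocycline (grey). Filled points passed the test; Kcnj8 is filled in all 4 contrasts, at 0.66, 0.82, 0.55 and 0.41.

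Between SS + RSD and AA + RSD no member passed the test in edgeR or DESeq2 in either tissue, and 0% and 0.0171% of genes were called in cortex and hippocampus. At an unadjusted p under 0.05 there were 1 and 2 members. Here and in the comparisons below, the share of all genes at that unadjusted level is not given. Such counts are therefore not read as particular to the members. The shares of genes called use the adjusted p, so they are no measure for such counts. Only 2 AA + RSD mice were used. Kcnj8 was at 3.94 and 4.31 CPM in AA + RSD cortex and 3.48 to 7.68 CPM in SS + RSD cortex (median 6.41), and at 3.41 and 3.80 CPM in AA + RSD hippocampus and 4.39 to 6.99 CPM in SS + RSD hippocampus (median 5.34). All 6 SS + RSD hippocampus libraries were above both AA + RSD libraries, at a log2 fold change of 0.59 ± 0.24 (adjusted p = 1). Rgs5 in hippocampus was at 74.4 and 88.2 CPM in AA + RSD and at 101.6 to 133.1 CPM in SS + RSD (median 119.6), with 0.53 ± 0.15 (adjusted p = 0.57). With the libraries of mouse 9674 included Rgs5 passed, at 0.58 (adjusted p = 0.011). All 6 SS + RSD libraries were also above both AA + RSD libraries for Abcc9 in hippocampus and for Vtn and Anpep in cortex. For Tagln in hippocampus all 6 were below both. How many of all genes parted in these ways was not counted, so these separations are not read as particular to the members.

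The next comparison asked what RSD did in SS mice. None of the 10 genes passed the test between SS + RSD and SS in edgeR or DESeq2, in cortex or hippocampus, where 2.57% and 3.11% of genes were called. At an unadjusted p under 0.05 there were 4 members in cortex and none in hippocampus. In cortex Acta2 was at 9.38, 12.2, 15.4, 18.98, 26.3 and 28.6 CPM in the 6 SS + RSD libraries, and between 3.99 and 17.99 CPM in the 8 SS libraries (median 9.75). The groups overlapped, with an estimate of 0.82 ± 0.35 (adjusted p = 0.13). Tagln had 0.83 ± 0.38 and Myh11 0.58 ± 0.30 (adjusted p = 0.15 and 0.20). Pdgfrb had an estimate of the other sign, -0.34 ± 0.14 (adjusted p = 0.12), and 6 of 8 SS libraries were above every SS + RSD library. It passed when only the groups compared were fitted (-0.38, adjusted p = 0.045). Within number range A, which held every SS + RSD mouse, Pdgfrb gave 0.02 ± 0.16. Myh11 gave 0.14 ± 0.50 and Tagln 0.11 ± 0.40 there.

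In hippocampus the same contrast gave an Acta2 estimate of 0.04 ± 0.44, Myh11 0.14 ± 0.33 and Tagln -0.08 ± 0.44. The untreated SS libraries ranged widely there. Acta2 ran in them from 5.45 to 56.04 CPM (median 17.4), while SS + RSD ran from 13.3 to 34.9 CPM (median 20.1). Within number range A, which holds 2 untreated SS mice, the cortex estimate of Acta2 was 0.09 ± 0.39 (adjusted p = 1) and the hippocampus estimate -0.93 ± 0.34 (adjusted p = 0.72).

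SS + RSD mice given minocycline were then compared with SS + RSD mice without it, which shared the SS + RSD libraries with the comparison above. In cortex Acta2 fell. It was between 4.44 and 21.02 CPM in SS + RSD + minocycline (n = 14, median 7.69), and 9 of these 14 libraries were below every SS + RSD library. The log2 fold change was -1.03 ± 0.30 (adjusted p = 0.033). It was 1 of 10 members called, close to the 8.85% of 19906 genes called in this contrast. At an unadjusted p under 0.05 there were 6 members, a count not to be set against that share. Myh11 had -0.71 ± 0.27 and Tagln -0.91 ± 0.33 (adjusted p = 0.085 and 0.077). Vtn had -0.31 ± 0.11 and Rgs5 -0.33 ± 0.12 (adjusted p = 0.068 and 0.078), while Abcc9, Notch3 and Pdgfrb had positive estimates of 0.10 to 0.28.

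The Acta2 value moved with number range and with the class of reads on no gene. In SS + RSD 5 of 6 cortex libraries were of the low class, and in SS + RSD + minocycline 5 of 14. The 5 low libraries of SS + RSD + minocycline had 9.68 to 21.02 CPM (median 11.3) and the 9 high ones 4.44 to 8.82 CPM (median 6.87). The estimate was -0.85 (adjusted p = 0.12) with the class as a term, -0.26 (adjusted p = 0.96) in the low class alone and 0.11 (adjusted p = 1) with number range as a term. Over all alternatives its adjusted p ranged from 0.018 to 1. In SS + RSD and SS + RSD + minocycline cortex, endothelial markers summed to medians of 457.6 and 345.9 CPM (2 of 8 fell, Cdh5 and Pecam1) and fibroblast markers to 50.9 and 36.5 CPM (2 of 9 fell, Col3a1 and Col1a2), and their part in the Acta2 difference was not tested.

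In hippocampus no member passed in this contrast, where 5.96% of genes were called, and 5 had an unadjusted p under 0.05. Acta2 was between 5.97 and 19.01 CPM in SS + RSD + minocycline (median 11.02), 10 of 14 libraries being below every SS + RSD library, with -0.96 ± 0.37 (adjusted p = 0.10). Myh11 had -0.74 ± 0.28, Tagln -0.87 ± 0.37 and Vtn -0.43 ± 0.15 (adjusted p = 0.091, 0.14 and 0.076). DESeq2 called Vtn (-0.42, adjusted p = 0.049), and a fit of these groups alone called Acta2, Myh11, Tagln and Vtn. With the class as a term the Acta2 estimate was 0.03 ± 0.31, and with number range as a term 0.97 ± 0.54 (adjusted p = 0.97 and 0.43).

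**Figure D3:**
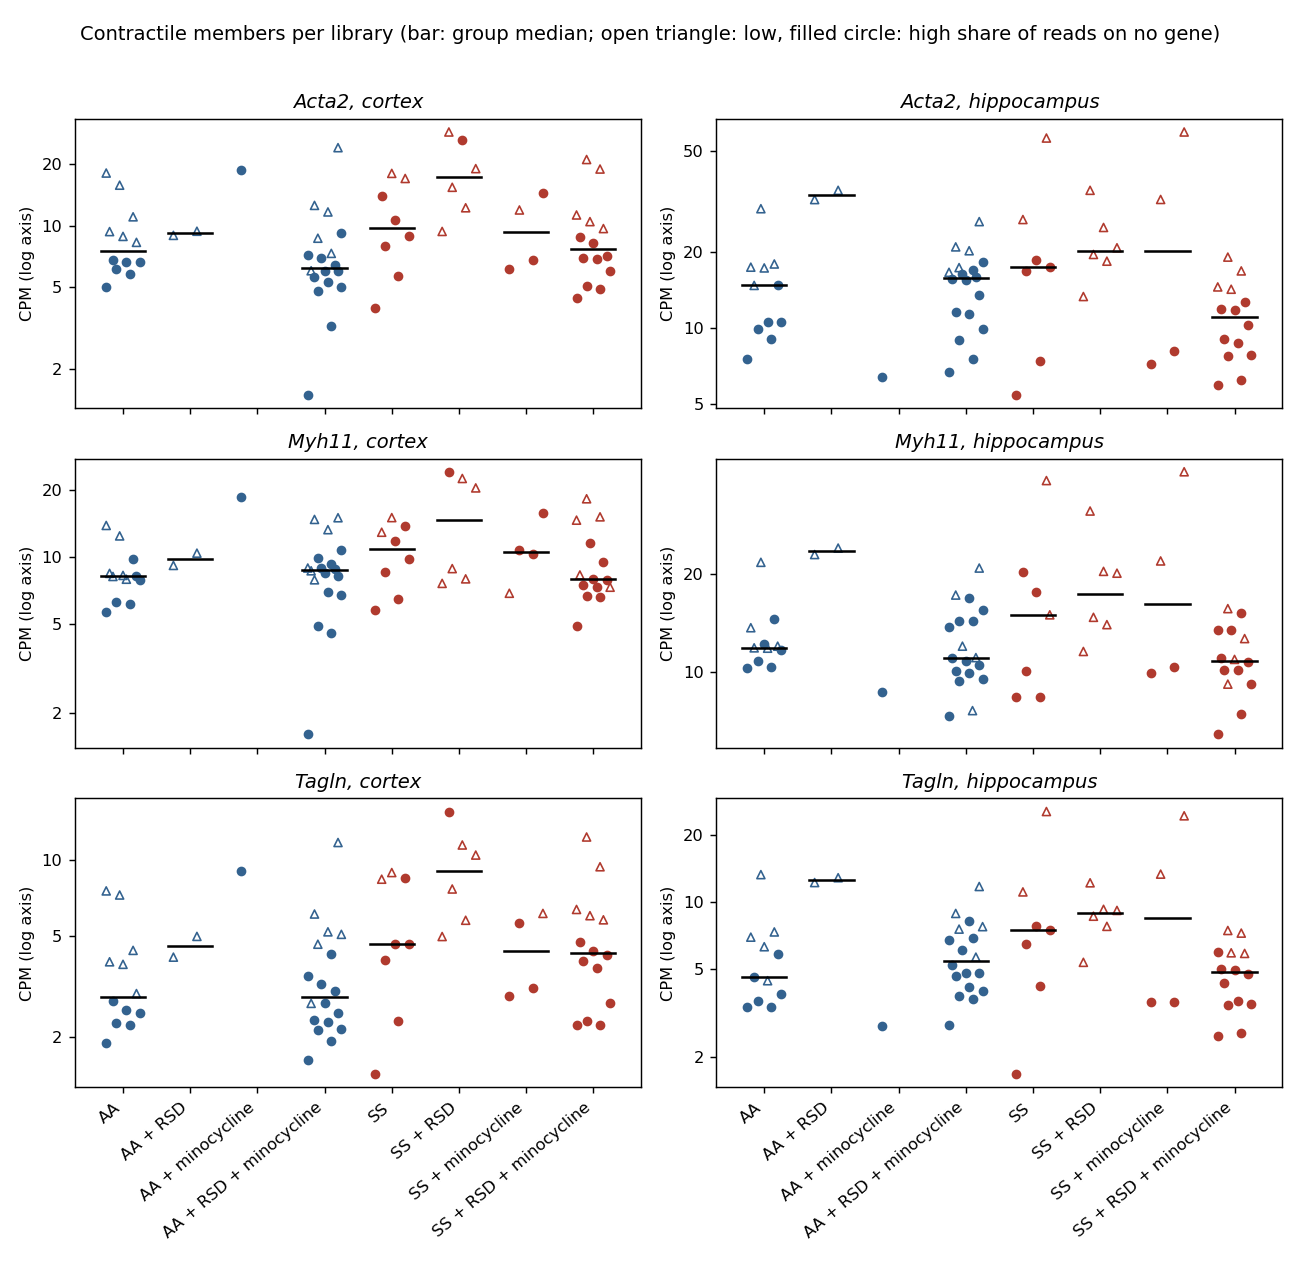
Acta2, Myh11 and Tagln in CPM (vertical log axis) in each library, by group along the horizontal axis, in cortex and hippocampus. Bars are group medians, open triangles are libraries with a low share of reads on no gene and filled circles those with a high share; in SS + RSD + minocycline cortex the 5 low libraries have Acta2 at 9.68 to 21.02 CPM and the 9 high ones at 4.44 to 8.82 CPM.

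The wider lists were read in the same contrast, against 8.85% of genes called in cortex and 5.96% in hippocampus. Of the 23 recruitment genes, Tek, the angiopoietin receptor of endothelium, fell by 0.59 on the log2 scale in cortex (SE 0.15, adjusted p = 0.015), and Pdgfd, a PDGF receptor ligand, and the TGF-beta receptor Tgfbr2 fell in hippocampus by 0.70 and 0.40 (SE 0.21 and 0.10, adjusted p = 0.046 and 0.029). Of the 20 further pericyte markers only the transcription factor Foxc1 fell in cortex, by 0.52 (SE 0.16, adjusted p = 0.036), and none in hippocampus. Of the contractile list 2 of 18 tested fell in cortex (Cnn1 and Pln, named after their values were seen), and 0 of 19 in hippocampus, where 6 had an unadjusted p under 0.05.

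Against untreated SS, SS + RSD + minocycline had no member called in edgeR or DESeq2 in either tissue (0% of genes in cortex and 0% in hippocampus). All 10 estimates were negative in both tissues, but 2 of 8 untreated SS cortex libraries and 2 of 7 of hippocampus were of number range A and no SS + RSD + minocycline library was. Within range B the cortex estimates of Acta2, Myh11 and Tagln were positive, at 0.14 ± 0.32, 0.07 ± 0.26 and 0.24 ± 0.37. With all libraries 0 members had an unadjusted p under 0.05 in cortex and 7 did in hippocampus, counts without the matching share of all genes. In hippocampus Vtn gave -0.53 ± 0.14, Tagln -0.94 ± 0.35, Acta2 -0.92 ± 0.36 and Anpep -0.53 ± 0.17 (adjusted p = 0.83, 1, 1 and 1). Within range B these hippocampus estimates were -0.28 ± 0.13, -0.10 ± 0.28, -0.12 ± 0.28 and -0.46 ± 0.19 (adjusted p = 0.40, 0.89, 0.86 and 0.33). Kcnj8 had -0.08 ± 0.15 in cortex and -0.29 ± 0.11 in hippocampus. Minocycline alone in SS mice was measured in 4 mice per tissue, and again no member was called by either tool (0% and 0% of genes), with 0 and 2 at an unadjusted p under 0.05. Acta2 in SS + minocycline hippocampus was at 7.21 and 8.13 CPM in 2 libraries and at 32.1 and 59.2 CPM in the other 2. The first pair was of the high class and of number range C, and the second of the low class and of range B. Class and range therefore cannot be told apart in this group. With range B alone the Acta2 estimate was 1.83 ± 0.41 (adjusted p = 0.07 in edgeR). Both SS + minocycline libraries in that fit were of the low class, and class was not a term. Minocycline and class are therefore not parted in it. Without mouse 9888, with all ranges, the Acta2 estimate was -0.40 ± 0.52. Kcnj8 in the SS + minocycline hippocampus libraries was at 3.30, 4.17, 4.17 and 5.86 CPM, of which only 1 reached the SS range of 4.59 to 6.62 CPM.

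In AA mice no member passed for RSD or for RSD with minocycline. For AA + RSD against AA the share of genes called was 0% in cortex and 0.0419% in hippocampus, and 0 and 4 members had an unadjusted p under 0.05. In hippocampus both AA + RSD libraries were above every AA library for 4 members, Acta2, Myh11, Vtn and Anpep. How many of all genes parted in this way was not counted, so the 4 are not read as particular to the members. Acta2 was at 32.1 and 34.9 CPM against 7.54 to 29.5 CPM in AA (median 14.7), with 1.22 ± 0.35 (adjusted p = 0.90). Myh11 was at 22.9 and 24 CPM against 10.3 to 21.7 CPM (median 11.9), with 0.88 ± 0.26 (adjusted p = 0.90). Vtn was at 79.2 and 95.2 CPM against at most 73.8 CPM, and Anpep at 4.08 and 5.85 CPM against at most 3.88 CPM. Tagln was at 12.2 and 12.9 CPM, inside the AA range of 3.35 to 13.3 CPM, with 1.15 ± 0.38 (adjusted p = 0.90). Both AA + RSD mice were of number range A and 8 of 11 AA libraries of range B. Within range A the estimates were 0.68 ± 0.25 for Acta2, 0.66 ± 0.28 for Myh11, 0.49 ± 0.30 for Tagln, 0.32 ± 0.12 for Vtn and 0.93 ± 0.27 for Anpep (adjusted p = 0.62, 0.69, 0.83, 0.62 and 0.53). Fibroblast markers summed to 103.9 and 142.4 CPM in these 2 libraries and to 36.7 to 110.3 CPM in AA, and their part was not tested. The library of mouse 9674 labelled hippocampus, left out for its tissue markers, had Acta2 at 11.3 CPM.

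In AA cortex the 2 AA + RSD libraries had Acta2 at 8.97 and 9.40 CPM, within the AA range of 5.05 to 18.1 CPM, and the estimate was 0.02 ± 0.53. For AA + RSD + minocycline against AA + RSD, which shares those 2 mice, the shares called were 0% and 0.0419%, again with 0 and 4 members at an unadjusted p under 0.05, and the hippocampus estimates were -1.16 ± 0.33 for Acta2, -0.92 ± 0.25 for Myh11 and -1.07 ± 0.37 for Tagln (adjusted p = 0.55, 0.47 and 0.65). For AA + RSD + minocycline against AA the shares were 0.0503% and 0%, and no member reached an unadjusted p under 0.05. Each estimate there lay between -0.24 and 0.24. Within range B, which leaves out the range A controls and the range C mice, Acta2 had 0.46 ± 0.16 and Tagln 0.55 ± 0.19 in hippocampus, and Tagln 0.59 ± 0.27 in cortex (adjusted p = 0.24, 0.23 and 0.78). DESeq2 called no member in these AA comparisons.

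Whether the response differed by genotype was tested directly. For RSD, 0% and 0.0128% of genes and no member were called in cortex and hippocampus, with 0 and 2 members at an unadjusted p under 0.05. The hippocampus estimate of the difference, SS minus AA, was -1.20 ± 0.61 for Acta2 and -1.24 ± 0.63 for Tagln (adjusted p = 1 for both). For RSD with minocycline 0% and 0% of genes were called, with 0 and 5 members at an unadjusted p under 0.05, and the lowest adjusted p of a member was that of Vtn in hippocampus, at -0.60 ± 0.16 (adjusted p = 0.79). DESeq2 called none. Kcnj8 gave -0.11 ± 0.20 and -0.42 ± 0.17 (adjusted p = 0.99 and 0.94).

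Members were also compared between hippocampus and cortex. In untreated AA mice 3 of 10 were called, a share under the 37.1% of all genes called. Acta2 was higher in hippocampus by 0.68 ± 0.22, Myh11 by 0.59 ± 0.14 and Vtn by 0.25 ± 0.08 on the log2 scale (adjusted p = 0.018, 0.0013 and 0.012), and Tagln had 0.63 ± 0.26 (adjusted p = 0.055). Acta2 was between 5.05 and 18.1 CPM in 12 cortex libraries (median 7.54) and between 7.54 and 29.5 CPM in 11 hippocampus libraries (median 14.7). In untreated SS mice 1 of 10 was called, Vtn at 0.42 ± 0.14 (adjusted p = 0.033), where 29.4% of genes were called and no contractile gene passed. With the mouse as a replicate block, 5 members were called in AA, adding Tagln at 0.74 and Abcc9, which fell by 0.23 (adjusted p = 6.8e-05 and 0.00095), and 2 in SS, adding Acta2 at 0.68 (adjusted p = 0.035).

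Genes of the lists called between the tissues are given by the same rule. Angpt1, a Tek ligand, was higher in hippocampus by 0.97 in AA and 1.02 in SS, and the Notch ligand Jag1 by 0.96 and 1.00 (adjusted p = 2.1e-05 and 4.2e-05, and 4.7e-07 and 2e-05). Caldesmon (Cald1) was higher by 1.03 and 0.83, and Nr2f2, a transcription factor, by 1.97 and 1.91. Gucy1a1, a subunit of the nitric oxide receptor, was lower by a log2 fold change of -1.55 and -1.58. In all, 6 and 5 of the 23 recruitment genes were higher and 2 and 2 lower in AA and SS, 7 and 5 of 18 contractile genes were higher and 2 and 2 lower, and 4 and 2 of 20 pericyte markers were higher and 3 and 2 lower. These counts stand beside the 37.1% and 29.4% of all genes called, and nothing particular to the lists was read from them. Many of these genes are also made by neurons or glia. Fibroblast markers were higher in hippocampus too, 5 and 4 of 9 being called higher in AA and SS (Dcn, Lum, Col3a1 and Cyp1b1 in both, and Igf2 in AA), and Col15a1 lower in SS. These names were chosen after their values were seen.

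Number range was compared over the untreated controls. Among untreated mice, with genotype as a covariate, range B was compared with range A. In cortex 6 members differed, beside 42.8% of genes called. Acta2, Myh11 and Tagln were lower in B, at -0.95 ± 0.19, -0.51 ± 0.15 and -1.07 ± 0.23 (adjusted p = 0.00058, 0.012 and 0.0012). Abcc9, Notch3 and Pdgfrb were higher in B, at 0.63 ± 0.14, 0.57 ± 0.13 and 0.32 ± 0.10 (adjusted p = 0.0016, 0.0018 and 0.012). In hippocampus 5 of 10 differed, close to the share of 44.3% over all genes, with Acta2 at -1.23 ± 0.26, Myh11 at -0.68 ± 0.23, Tagln at -1.38 ± 0.27 and Vtn at -0.42 ± 0.11 lower, and Abcc9 at 0.42 ± 0.17 higher (adjusted p = 0.0013, 0.023, 0.00063, 0.0043 and 0.048). Kcnj8 had 0.10 ± 0.14 and -0.26 ± 0.15 (adjusted p = 0.62 and 0.18). With the class of reads on no gene as a term, no member was called in either tissue. Class and range overlap: of the range A libraries used, 13 were low and 1 high in cortex, and all 13 were low in hippocampus. That count therefore does not part range from class. Over all alternatives Acta2 stayed at -0.54 or lower in cortex and -0.61 or lower in hippocampus, and Tagln at -0.71 and -0.98 or lower. In cortex Notch3 and Abcc9 went down to 0.03 and 0.19.

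The share of reads on no gene itself ran with these genes inside the groups. With group means subtracted, Acta2 and Tagln had Pearson correlations of -0.59 and -0.58 with it over 64 cortex libraries, and Notch3, Abcc9 and Pdgfrb had 0.51, 0.51 and 0.45. Over 62 hippocampus libraries the values were -0.52, -0.48, 0.59, 0.50 and 0.58 in the same order. Kcnj8 had 0.03 and 0.11. These are descriptions, since the libraries share the class and number range.

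**Figure D4:**
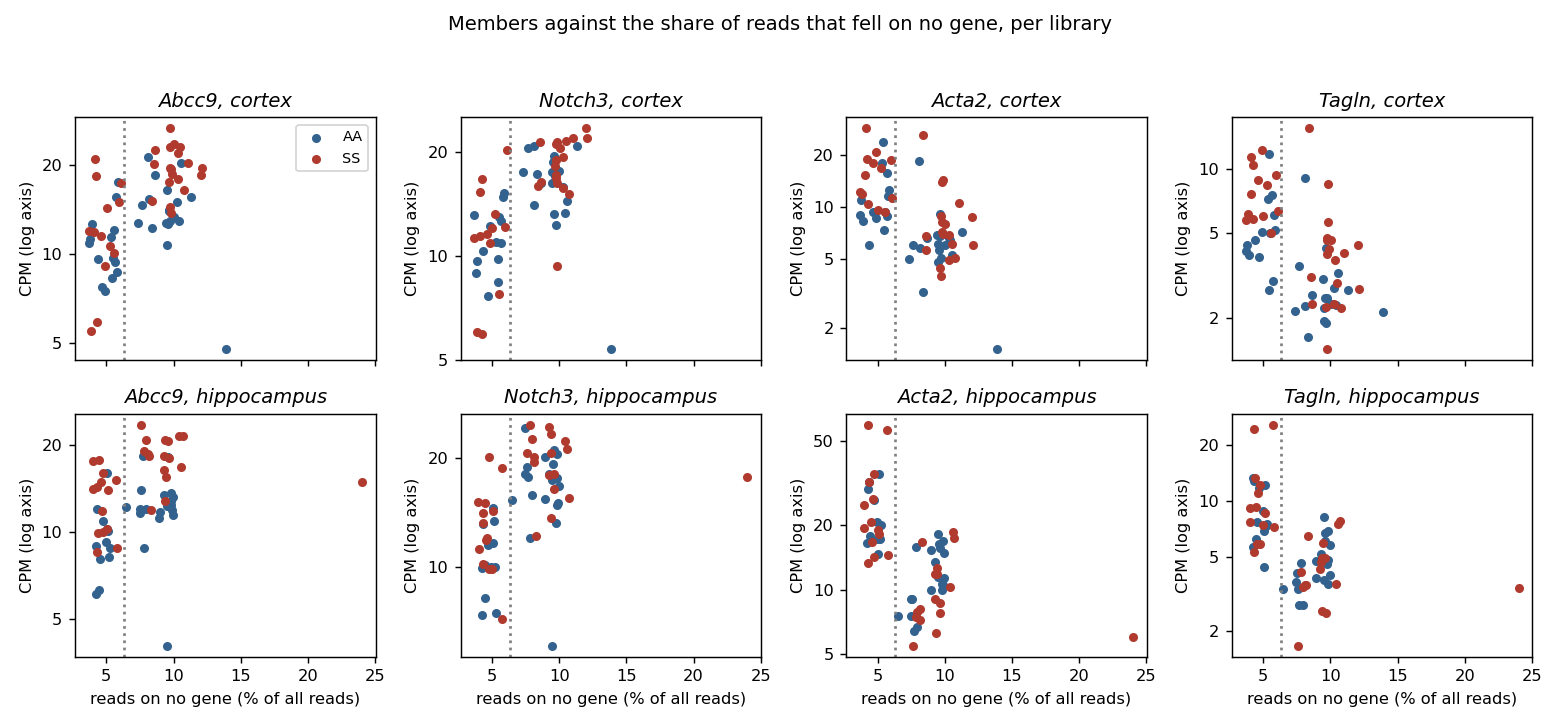
Abcc9, Notch3, Acta2 and Tagln in CPM (vertical axis) against the percent of reads on no gene (horizontal axis) in each library, in cortex and hippocampus; the dotted line at 6.3% parts the low from the high class. To the right of the line Acta2 and Tagln lie lower and Abcc9 and Notch3 higher, with within-group correlations in cortex of -0.59, -0.58, 0.51 and 0.51.

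The 10 genes did not vary as a single block. With group means subtracted, the 3 pairs of contractile genes correlated at 0.73 to 0.90 over 64 cortex libraries and at 0.78 to 0.95 over 62 hippocampus libraries. Pdgfrb, Abcc9 and Notch3 formed a second set, at 0.79 to 0.85 and 0.82 to 0.92. Pairs between the sets had lower values. Acta2 and Abcc9 had -0.22 and -0.49, and 0.28 and -0.09 with class means subtracted too, and Acta2 and Notch3 had -0.18 and -0.46, and 0.33 and -0.00. Myh11 had 0.15 and -0.01 with Abcc9, and 0.51 and 0.41 with class means subtracted too. With Notch3 Myh11 had 0.22 and 0.06, and 0.60 and 0.52 with class means subtracted too, so its distance from the second set shrank. Kcnj8 ran with Vtn (0.63 and 0.53) more than with its channel partner Abcc9 (0.23 and 0.19). Vtn in turn ran with the contractile genes, at 0.70 and 0.76 with Acta2, 0.57 and 0.64 with Myh11 and 0.52 and 0.78 with Tagln. With class means subtracted as well, the contractile pairs had 0.68 to 0.87 and 0.70 to 0.88, and Pdgfrb, Abcc9 and Notch3 0.71 to 0.76 and 0.78 to 0.86. Between the cortex and the hippocampus of the same mouse, over 62 mice, correlations ran from 0.61 for Tagln and 0.57 for Acta2 and Pdgfrb to 0.21 for Kcnj8 and Vtn.

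**Figure D5:**
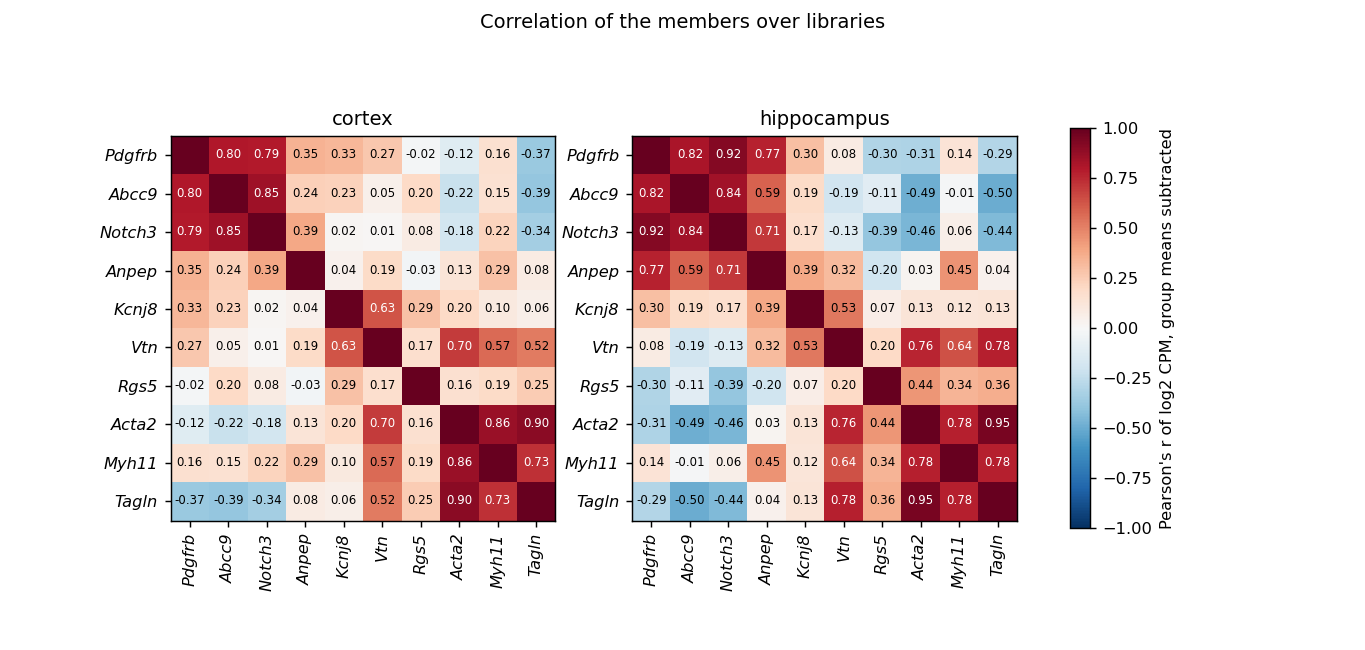
Pearson correlation between each pair of the 10 genes, with group means subtracted, over 64 cortex and 62 hippocampus libraries (colour scale from negative to positive). Acta2, Myh11 and Tagln form a block at 0.73 to 0.90 in cortex and 0.78 to 0.95 in hippocampus, and Pdgfrb, Abcc9 and Notch3 another.

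Among 14751 cortex genes outside the set, the one most like the mean of the 3 contractile genes was Myl9, the regulatory light chain of smooth muscle myosin, at 0.89, followed by Fbln5, Vim, Pecam1 and Uaca at 0.77 to 0.80. In hippocampus Myl9 came first at 0.91, then Tpm2 (tropomyosin) at 0.87 and Des (desmin) at 0.86. The genes most like the mean of all 10 were Atp2a3, She, Cdh5, Flt1 and Adgrf5 in cortex, at 0.68 to 0.69, and Bgn, Acvrl1, Ntn1 and Lrrc32 in hippocampus, at 0.76 to 0.77. Cdh5 and Flt1 are endothelial genes, and the contractile mean itself had correlations of 0.54 and 0.67 with the summed endothelial markers, 0.54 and 0.39 with the fibroblast markers, 0.64 and 0.54 with microglial markers, 0.56 and 0.67 with markers of border macrophages and 0.47 and 0.64 with those of immature red blood cells.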

How the data were processed

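Bulk RNA from mouse cortex and hippocampus was sequenced as directional poly(A) libraries with single reads of 85 bases. Per the study's methods, the authors aligned reads with STAR to GRCm39 and counted them per gene during mapping with a GENCODE annotation. The deposited values are these raw counts, 1 table per tissue, in which 3 columns matched no sample and were not used. The library of 1 sample whose group the labels do not give was not used either. Rows for unmapped, multi-mapped, no-gene and ambiguous reads were taken out before library sizes were computed (no-gene reads: median 8.25% in cortex and 7.59% in hippocampus). The aligner version, annotation release and strand setting are not given in the sources used here.

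Groups came from the labels. Genes were filtered with filterByExpr (minimum count 10, total 15), scaled by TMM and tested with the quasi-likelihood test of edgeR 4.0.16 in R 4.3.3, with Benjamini-Hochberg adjustment over all genes tested and a threshold of 0.05. SS and AA were compared in a model of all groups of a tissue, treatments in a model of all groups of that genotype and tissue, and tissues among untreated mice of a genotype. CPM carried TMM scaling, and correlations used log2 CPM with a prior count of 2. Values per kilobase used the union of annotated exons of GENCODE vM39. Alternatives were DESeq2 1.42.0, RLE size factors, no filter, number range as a term or 1 range alone, fits of the compared groups alone, the mouse block, leaving out doubted libraries or single replicates and, added after the data were seen, the class of reads on no gene (parted at 6.3%) and leaving out 2 cortex libraries. The fitting script was tested on simulated counts.

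The 10 genes were named in every comparison. From each further list, the called genes of largest change were named, at most 2 in each direction and none whose mean log2 CPM was under 0. The members and lists were chosen with earlier results of these data known. Of the mice used, 63 gave both a cortex and a hippocampus library and the others cortex only. The mouse number pairs the tissues. Over 62 mice the deviations from group means correlated at a median of 0.46 (0.14 to 0.83), above 0.1 in all 62, and 32 mice correlated best with themselves. Mice are the replicates. Promoters were read from RefSeq on GRCm38.p6 for the 7 of 10 members matched by symbol.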

Additional observations from a re-analysis of the deposited data

Results flagged for a closer look

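A single library far from the rest of its group, by the gap test of Dixon at the 95% level, was found in 4 of 60 sets of a gene, a group and a tissue that had 4 to 10 libraries, and chance alone gives about 1 in 20. In SS hippocampus the same mouse, 5349, stood highest for all 3 contractile genes: Acta2 at 56 CPM against 26.7 CPM in the next library, Myh11 at 38.6 CPM against 20.2 CPM, and Tagln at 25.6 CPM against 11.1 CPM. In SS + RSD cortex, Rgs5 of mouse 5400 was lowest, at 70.7 CPM, where the nearest library had 117 CPM and the highest 134 CPM. Both libraries were of the class with a low share of reads on no gene.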

How the results depend on the processing

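Of 298 alternative counts of members called, 260 stayed within 1.5 times the reported count and 38 did not. Of 170 alternative fold changes of called members, 126 kept direction and call, 43 kept direction only and 1 reversed, the Acta2 value for SS + RSD + minocycline against SS + RSD in cortex, which was 0.11 with number range as a term. For SS against AA the counts were 0 in cortex without the filter, with range A alone, with number range as a term and in the low class, and 2 with the groups compared alone, the class as a term or mice 7076 and 9851 left out; in hippocampus they were 0 with range A alone and 1 with range B alone, the groups alone, the low class or the high class. For SS + RSD + minocycline against AA + RSD + minocycline they were 1 in cortex without the filter, with the groups alone and without mice 7076 and 9851, and 0 with range B, the high class or the low class, and in hippocampus 0 with range B, the groups alone or the low class and 1 in the high class. For SS + RSD + minocycline against SS + RSD they were 0 in cortex without the filter, with number range or the class as a term or in the low class, and 2 without mice 7076 and 9851, and in hippocampus 1 with DESeq2 and 4 with the groups alone. SS + RSD against AA + RSD in hippocampus gave 1 with mouse 9674, SS + RSD against SS in cortex 1 with the groups alone, SS + minocycline against SS in cortex 2 with range B alone (Abcc9 and Notch3), and AA + RSD + minocycline against AA + RSD in hippocampus 1 in the low class (Anpep). With range B alone Abcc9 and Notch3 were lower in SS + minocycline cortex, at -1.22 and -1.36, in a fit without the class as a term. Hippocampus against cortex gave 5 in AA and 2 in SS with the mouse as a replicate block, and 2 in SS with the class as a term, and range B against A gave 0 in both tissues with the class as a term. Leaving out single AA + RSD or SS + minocycline mice gave counts from 0 to 0. The cause of these changes was not tested, beyond the fewer libraries in a single range or class. Depth bears most on Anpep and Kcnj8, whose lowest libraries held 28 and 31 reads.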
